A study of Mus musculus with 4 samples.

Results

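The enzymes that build and break down glycogen were followed in mouse heart through 9 genes. These were chosen by name, with earlier results of these data known. Gys1, Gyg, Ugp2 and Gbe1 stand for synthesis, and Pygm, Pygb, Phka1, Phkb and Phkg1 for breakdown. They were 9 of the 28723 genes of the deposited table, each with 1 entry, and lay on 9 different chromosomes. RNA was taken from the whole heart of C57BL/6J mice that had no treatment and were kept under specific pathogen-free conditions, and the genotype of all 4 libraries is given as WT. There were 2 libraries at 12 months of age and 2 at 8 weeks of age, and the question is which genes differ with age. The titles of the 12-month libraries begin with FLOX and those of the 8-week libraries with C, which the labels do not explain. They give neither the sex of the mice nor whether the libraries of an age came from different animals; p-values therefore reflect the spread among these libraries, which may be technical. The ages were read from a label field named batch, and any batch that followed age cannot be told apart from age.

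Glycogen is the branched glucose store of the cell, and in heart muscle it serves as a quickly mobilised fuel beside fatty acids. Glucose 1-phosphate is activated to UDP-glucose, a chain is primed on the protein glycogenin, glycogen synthase lengthens it, and a branching enzyme adds the branch points. Glycogen phosphorylase removes glucose units from the chain ends once phosphorylase kinase, a complex of alpha, beta, gamma and calmodulin subunits, has switched it on.

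The libraries held 51328364 to 63828074 estimated counts, and the 9 genes held 1510 to 55889 counts in a library. Mitochondrially encoded genes took 23.7% and 23.2% of the counts at 12 months, against 27.1% and 27.3% at 8 weeks. Summed FPKM (fragments scaled to transcript length and to the size of the library) of 10 heart muscle markers was 15062 and 14955 at 12 months and 15878 and 15794 at 8 weeks, so both ages carried the label's tissue. Within that sum 3 markers rose (Ryr2, Ttn and Actc1) and 4 fell (Myl2, Tnni3, Myl3 and Tnnt2), by log2 fold changes of up to 1.03 and down to -0.98. Markers of other cell types moved with age. All 6 tested fat cell markers rose, with summed FPKM of 110.5 and 118 at 12 months against 10.3 and 2.63 at 8 weeks. Of these, Plin1, Retn and Ucp1 lay under 1 FPKM in both 8-week libraries. They passed the expression minimum, a mean of at least 1 FPKM, only through their 12-month libraries, which favoured a rise. Adipoq and Cidec lay under 1 FPKM in 8 weeks replicate 2. Lep, also on the list, was under the minimum and was not tested. All 6 atrial markers rose too, with 4400 and 1674 FPKM at 12 months against 281 and 287 FPKM at 8 weeks. Among them Bmp10 passed the minimum through 12 months replicate 2 alone. It had 7.80 FPKM there, against 0.169 FPKM in 12 months replicate 1 and 0.0229 and 0.0456 FPKM at 8 weeks. All 6 endothelial markers fell, with 127 and 123 FPKM at 12 months against 266 and 263 FPKM at 8 weeks. Of the smooth muscle and the macrophage markers, 2 of 4 in each list rose, as did 1 of 5 fibroblast markers, and 1 of 5 tested glial and neuronal markers fell. None of these marker lists had a gene at 0 in all libraries, and their part in the results that follow was not tested. In whole tissue, fewer cells of a type and less RNA per cell cannot be told apart.

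Transcripts of 8 of the 9 enzymes rose at 12 months, and Phkg1 did not pass the test. All 4 synthesis genes rose, by 1.43-fold to 2.43-fold, and so did 4 of the 5 breakdown genes, by 1.47-fold to 1.95-fold. All 9 passed the expression minimum, a mean of at least 1 FPKM. In edgeR's quasi-likelihood test with Benjamini-Hochberg adjustment over all 12027 tested genes, calls at an adjusted p below 0.05 made up 20.1% of genes in the higher direction and 17.5% in the lower direction. With FPKM of each library rescaled to 1 sum, 3786 genes were called higher and 1079 lower, in place of 2416 and 2104, and all 9 enzymes were called higher. The count of enzymes called lower was 0 with edgeR, 0 at an unadjusted p below 0.05 and 0 with DESeq2. Both 12-month libraries lay above both 8-week libraries for all 9 enzymes, as they did for 41.4% of tested genes. The median log2 fold change, 12 months over 8 weeks, was 0.86 over the 9 enzymes, 0.98 over the synthesis genes and 0.61 over the breakdown genes, beside 0.01 over all tested genes.

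**Figure D1:**
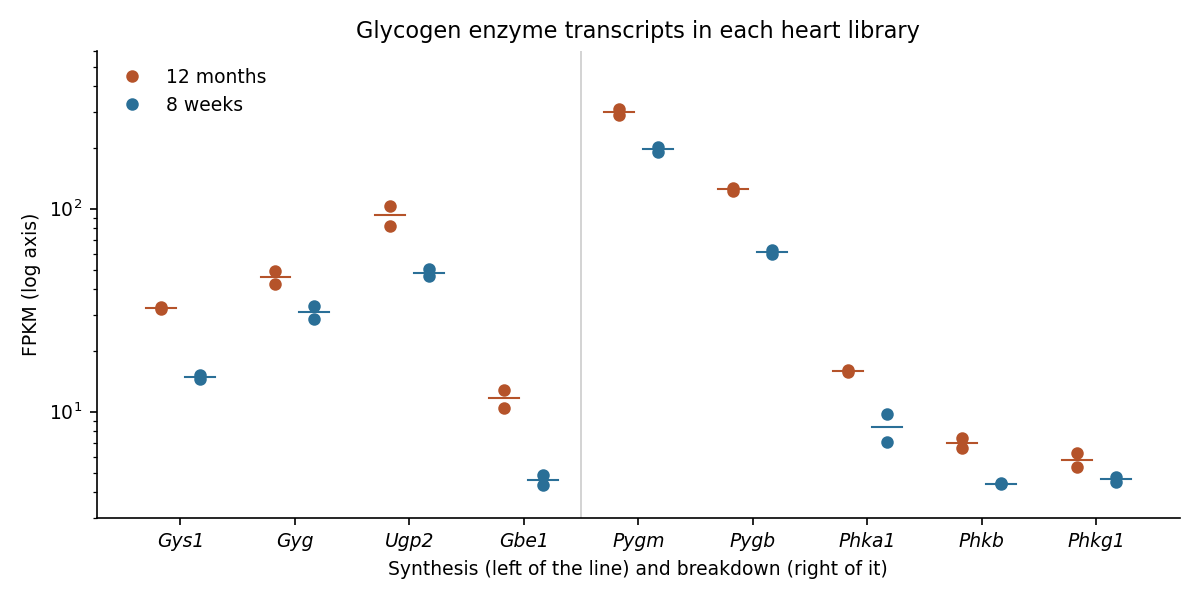
FPKM (vertical axis, log scale) of the 9 enzymes in each library: for each gene the 12-month points (orange) stand left of the 8-week points (blue), bars mark means, and a grey line parts synthesis from breakdown. For every gene both 12-month points lie above both 8-week points, and the gap is wide for Gbe1 and Gys1 and narrow for Phkg1.

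Gys1 encodes the glycogen synthase of muscle and most other tissues outside the liver, the enzyme that lengthens the chain. It had 32.8 and 32.2 FPKM at 12 months, against 14.5 and 15.1 FPKM at 8 weeks. The libraries of each age lay close together, and the ages were far apart. Gys1 rose 2.1-fold, a log2 fold change of 1.07 ± 0.07 (SE, n = 2 libraries at each age; edgeR adjusted p = 0.0012). The gene (ENSMUSG00000003865 in the deposited table) lies on the plus strand of chromosome 7 at 45434844 to 45456619, in build GRCm38. It overlaps Ruvbl2 on the opposite strand, which had 6.41 and 7.22 FPKM at 12 months and 6.04 and 6.49 FPKM at 8 weeks.

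Gbe1 encodes the branching enzyme, which moves chain ends to make new branch points. It showed the largest fold change of the 9. Its level was 12.8 and 10.5 FPKM at 12 months, against 4.87 and 4.35 FPKM at 8 weeks. Although the 12-month libraries differed from each other more than the 8-week libraries did, the ages did not overlap. The log2 fold change was 1.28 ± 0.13 (SE), or 2.43-fold (edgeR adjusted p = 0.00172), above 97.6% of tested genes. Gbe1 lies on the plus strand of chromosome 16 at 70313949 to 70569716.

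Ugp2 encodes UDP-glucose pyrophosphorylase, which supplies the activated glucose and also serves other sugar pathways. Libraries at 12 months had 104 and 82.5 FPKM, and those at 8 weeks had 46.4 and 50.3 FPKM. The spread was widest within 12 months, where replicate 1 was the higher, and both libraries still stood above 8 weeks. Ugp2 rose 1.85-fold, with a log2 fold change of 0.89 ± 0.13 (SE; edgeR adjusted p = 0.00462). It lies on the minus strand of chromosome 11 at 21321138 to 21371201 and overlaps Gm12043 on the opposite strand.

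Gyg encodes glycogenin, the protein that primes each particle. It gave 49.6 and 42.8 FPKM at 12 months and 33.1 and 28.8 FPKM at 8 weeks. The ages did not overlap, but the spread within each was wide beside the gap. This was the smallest change of the synthesis genes, 0.52 ± 0.11 on the log2 scale (SE) or 1.43-fold (edgeR adjusted p = 0.0158). The call was lost without 8 weeks replicate 2, where the log2 fold change was 0.42 and the adjusted p 0.0954. Gyg lies on the minus strand of chromosome 3 at 20122084 to 20155317.

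The phosphorylases carried the highest levels on the breakdown side. Pygm, the muscle isoform, had 290.5 and 311 FPKM at 12 months, against 201 and 190.4 FPKM at 8 weeks, the highest level of the 9 enzymes at both ages. It rose 1.47-fold, with a log2 fold change of 0.56 ± 0.07 (SE; edgeR adjusted p = 0.00349). Pygb, the isoform named for brain and also known in heart, had 127 and 122 FPKM at 12 months and 60.0 and 62.9 FPKM at 8 weeks. Its libraries lay close together within each age. Pygb rose 1.95-fold, with a log2 fold change of 0.96 ± 0.08 (SE; edgeR adjusted p = 0.0012). Pygm lies on the plus strand of chromosome 19 at 6384399 to 6398459, and Pygb on the plus strand of chromosome 2 at 150786735 to 150831758. How reads that match several related genes were counted is not given in the labels or headers used here, and these isoforms are related in sequence.

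Of the phosphorylase kinase subunits, Phka1 and Phkb rose. Phka1, the muscle form of the regulatory alpha subunit, had 16.1 and 15.7 FPKM at 12 months, against 7.11 and 9.70 FPKM at 8 weeks. Here the 8-week libraries were the more scattered. Phka1 rose 1.82-fold, with a log2 fold change of 0.86 ± 0.14 (SE; edgeR adjusted p = 0.00655). Phkb, the beta subunit shared by muscle and liver forms, had 7.41 and 6.60 FPKM at 12 months and 4.38 and 4.45 FPKM at 8 weeks. It rose 1.52-fold, with a log2 fold change of 0.61 ± 0.09 (SE; edgeR adjusted p = 0.00508).

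Phkg1, the catalytic gamma subunit of muscle, did not pass the test. Its level was 5.32 and 6.23 FPKM at 12 months, against 4.76 and 4.53 FPKM at 8 weeks. Both 12-month libraries were the higher, but by little. The log2 fold change was 0.25 ± 0.10 (SE), with an edgeR adjusted p = 0.0886 and an unadjusted p of 0.0412 in the fit across all genes. Without 12 months replicate 1 it was called, at 0.33 and an adjusted p of 0.0364, as it was with rescaled FPKM, at 0.38 and 0.0339. Phkg1 overlaps Sumf2 on the opposite strand, which had 2.71 and 2.91 FPKM at 12 months and 2.71 and 3.14 FPKM at 8 weeks, and the strand setting used in counting is not given in the labels or headers used here. The kinase genes lie on the minus strand of chromosome X at 102513975 to 102644246 (Phka1), the plus strand of chromosome 8 at 85840959 to 86030391 (Phkb) and the minus strand of chromosome 5 at 129863421 to 129879088 (Phkg1). A list of 10 skeletal muscle markers was read because skeletal muscle also uses Pygm, Phka1 and Phkg1. The 9 of them in the table summed to 18.1 and 11.7 FPKM at 12 months and 13.6 and 13.7 FPKM at 8 weeks, with 0 of 5 tested called higher and Mylpf called lower.

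FPKM is scaled per transcript length, so levels can be ordered between genes. At 12 months the order of mean FPKM was Pygm, Pygb, Ugp2, Gyg, Gys1, Phka1, Gbe1, Phkb and Phkg1, and no neighbours overlapped in their libraries. At 8 weeks the first 6 places were the same, and Phkg1, Gbe1 and Phkb followed with ranges that overlapped between neighbours. Gbe1 thus stood above Phkb and Phkg1 at 12 months, whereas at 8 weeks its libraries overlapped those of both. Summed FPKM of the 4 synthesis genes was 199 and 168 at 12 months, against 98.8 and 98.6 at 8 weeks. Summed FPKM of the 5 breakdown genes was 446 and 462 at 12 months, against 277 and 272 at 8 weeks. The synthesis share of both sums was 30.8% and 26.7% at 12 months and 26.3% and 26.6% at 8 weeks, so only 12 months replicate 1, the library with the most Ugp2, stood clearly apart.

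Ratios within a library do not depend on how libraries are scaled, and 9 pairs of genes were compared in this way. Each was tested with a two-sided exact permutation test over the 4 libraries, adjusted over the 9 pairs. With 2 libraries at each age the smallest p that test can give is 0.333, so no pair could pass. The log2 ratio of Gys1 to Pygm was -3.15 and -3.27 at 12 months, against -3.79 and -3.65 at 8 weeks. The ages did not overlap, and synthase was higher relative to muscle phosphorylase by 0.51 at 12 months (exact p = 0.333, adjusted 0.5). Gys1 and Pygb were not among the pairs. Their log2 fold changes were closer, at 1.07 ± 0.07 and 0.96 ± 0.08 (SE). The log2 ratio of Gys1 to Gbe1 was 1.36 and 1.62 at 12 months and 1.57 and 1.80 at 8 weeks. These overlapped, with a mean difference of -0.20 (exact p = 0.667).

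Within the synthesis genes, the log2 ratio of Gyg to Gys1 was 0.60 and 0.41 at 12 months, against 1.19 and 0.93 at 8 weeks. The primer protein's transcript was therefore lower relative to the synthase at 12 months, by -0.55, with no overlap (exact p = 0.333). The log2 ratio of Ugp2 to Gys1 was 1.66 and 1.36 at 12 months and 1.68 and 1.73 at 8 weeks. The ages did not overlap, but 12 months replicate 1 lay beside the lower 8-week library.

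**Figure D2:**
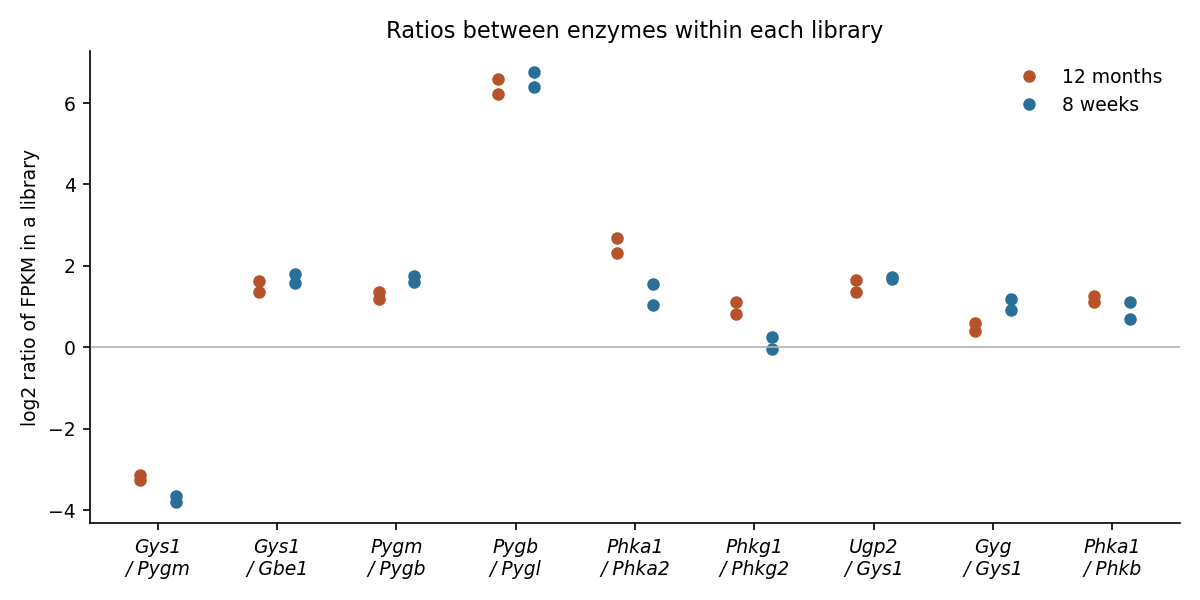
Log2 ratio of FPKM within each library (vertical axis) for the 9 gene pairs, with 12 months (orange) left of 8 weeks (blue) in each pair; points are libraries. Gys1 over Pygm is higher at 12 months by 0.51 and Pygm over Pygb is lower by 0.40, while Gys1 over Gbe1 overlaps between the ages.

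Both phosphorylase isoforms rose, and the share of Pygb was the higher in both 12-month libraries. Pygm made up 69.4% and 71.5% of summed phosphorylase FPKM at 12 months, against 76.8% and 75.0% at 8 weeks. Pygb made up 30.3% and 28.1% at 12 months, against 22.9% and 24.8% at 8 weeks. The ages did not overlap for either isoform, and the log2 ratio of Pygm to Pygb differed by -0.40 (exact p = 0.333). Pygl, the liver isoform, had 1.32 and 1.64 FPKM at 12 months and 0.716 and 0.581 FPKM at 8 weeks. It rose as well, with a log2 fold change of 1.12 ± 0.18 (SE; edgeR adjusted p = 0.00605). Both 8-week values lay under 1 FPKM, so Pygl passed the minimum mean of 1 FPKM only through its 12-month libraries. The minimum thus favoured a rise. It made up 0.315% and 0.376% of the phosphorylase sum at 12 months and 0.273% and 0.229% at 8 weeks, and the summed FPKM of 4 liver markers was 3.50 and 4.10 at 12 months and 4.20 and 3.29 at 8 weeks. The log2 ratio of Pygb to Pygl overlapped between the ages.

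For phosphorylase kinase, the share of the muscle isoforms was the higher in both 12-month libraries. Phka2, the liver form of the alpha subunit, had 2.50 and 3.18 FPKM at 12 months, against 3.47 and 3.28 FPKM at 8 weeks. That gave a log2 fold change of -0.31 ± 0.13 (SE), which was not called (edgeR adjusted p = 0.116). Phka1 made up 86.6% and 83.2% of the alpha sum at 12 months, against 67.2% and 74.7% at 8 weeks. The log2 ratio of Phka1 to Phka2 was higher by 1.20 at 12 months, the largest shift of the 9 pairs, and the ages did not overlap (exact p = 0.333).

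Phkg2, the gamma subunit best known from liver and testis, had 2.48 and 3.56 FPKM at 12 months and 3.98 and 4.67 FPKM at 8 weeks. Its log2 fold change was -0.58 ± 0.19 (SE; edgeR adjusted p = 0.0562). It was called lower by DESeq2 (adjusted p = 0.0148), with the GC trend removed (-0.64, edgeR adjusted p of 0.0373) and without 12 months replicate 2, at -0.84 and an edgeR adjusted p of 0.00634. Phka2 was also called lower without that library, at -0.47 and an edgeR adjusted p of 0.0318. Phkg1 made up 68.2% and 63.6% of the gamma sum at 12 months, against 54.5% and 49.2% at 8 weeks, and the log2 ratio of Phkg1 to Phkg2 was higher by 0.85 (exact p = 0.333). The gamma sum itself was 7.80 and 9.79 FPKM at 12 months and 8.73 and 9.20 FPKM at 8 weeks, so the ages overlapped. The alpha sum was 18.6 and 18.9 FPKM at 12 months, against 10.6 and 13.0 FPKM at 8 weeks. Between the alpha and beta subunits, the log2 ratio of Phka1 to Phkb overlapped, at 1.12 and 1.25 for 12 months and 0.70 and 1.12 for 8 weeks.

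**Figure D3:**
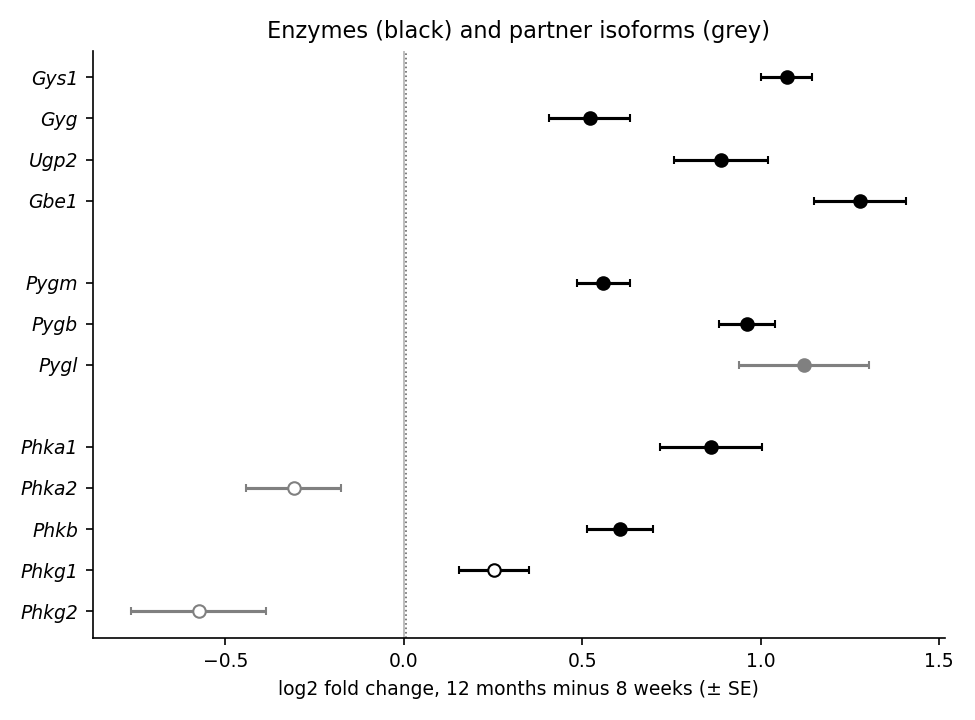
Log2 fold change, 12 months over 8 weeks, with SE bars (edgeR), for the 9 enzymes (black) and for partner isoforms (grey); filled points were called at an adjusted p below 0.05 and the dotted line is the median of all tested genes. Pygm, Pygb and Pygl all lie to the right, whereas Phka1 (0.86) and Phkg1 (0.25) lie right of Phka2 (-0.31) and Phkg2 (-0.58).

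The liver synthase Gys2 fell below the expression minimum and was not tested with the others. It had 92 and 39 counts at 12 months, against 0 and 3 counts at 8 weeks. With no minimum it was called higher (edgeR adjusted p = 0.0229). Its level was 0.573 and 0.264 FPKM at 12 months, far under the 32.8 and 32.2 FPKM of Gys1 in the same libraries.

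The wider pathway was read from a list of 37 further genes, also chosen with earlier results of these data known. Of the list, 32 genes passed the expression minimum. Of these, 18 rose, 2 fell and 12 were not called, against the 20.1% higher and 17.5% lower among all tested genes. Their median log2 fold change was 0.38. On the synthesis side 6 of 9 tested genes rose and 1 fell. Phosphoglucomutase, which interconverts glucose 6-phosphate and glucose 1-phosphate, rose through Pgm1, with 62.4 and 62.7 FPKM at 12 months against 40.4 and 39.1 FPKM at 8 weeks (log2 fold change 0.60 ± 0.07, SE; edgeR adjusted p = 0.00256). Its relative Pgm5, a muscle adhesion protein without that activity, is counted among the 6 and rose by a log2 fold change of 1.01 ± 0.13 (SE). The minor form Pgm2 fell, by -0.50 ± 0.13 (SE; edgeR adjusted p = 0.0308), and Pgm1 made up 93.5% and 93.4% of phosphoglucomutase FPKM at 12 months against 88.5% and 87.0% at 8 weeks.

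Genes of glucose entry and phosphorylation were called higher too. The hexokinases Hk1 and Hk2 rose by log2 fold changes of 0.62 and 0.48, and the glucose transporters Slc2a4 (GLUT4, the insulin-responsive carrier) and Slc2a1 (GLUT1) rose by 0.38 and 0.37. The calls of Slc2a1 and Pgm2 were not firm, passing in 6 and 8 of the 15 fits that tested them. Those of Hk2 and Slc2a4 were lost without either 8-week library. There the log2 fold changes were 0.48 and 0.49 for Hk2 and 0.39 and 0.38 for Slc2a4. The call of Hk2 was also lost with no expression minimum (edgeR adjusted p = 0.0518). Pgm2l1, a brain-enriched relative of the phosphoglucomutases, was not called (edgeR adjusted p = 0.372).

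On the breakdown side 4 of 10 tested partners rose and 6 were not called. Pygl, among the 4, passed the expression minimum only through its 12-month libraries. Gaa, the lysosomal glucosidase that degrades glycogen by a separate route, had 35.0 and 34.4 FPKM at 12 months, against 19.1 and 21.3 FPKM at 8 weeks, and rose by a log2 fold change of 0.72 ± 0.08 (SE; edgeR adjusted p = 0.00223). Of the 3 calmodulin genes, whose product is also a kinase subunit, Calm3 was called higher, at 0.29, a call that held in 12 of 16 fits. That call was lost with no expression minimum (edgeR adjusted p = 0.0606), without either 8-week library and without 12 months replicate 1.

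Proteins that steer the switch between synthesis and breakdown were read in 3 groups. Of the 7 subunits that bring protein phosphatase 1 to glycogen, where it activates synthase and inactivates phosphorylase, 4 were tested and 2 rose. Ppp1r3a, the striated muscle subunit, had 18.9 and 17.1 FPKM at 12 months, against 9.79 and 8.91 FPKM at 8 weeks. Its log2 fold change was 0.89 ± 0.09 (SE; edgeR adjusted p = 0.00188). Ppp1r3c had 30.7 and 26.6 FPKM at 12 months, against 18.3 and 16.5 FPKM at 8 weeks, a log2 fold change of 0.66 ± 0.10 (SE). Among the catalytic subunits Ppp1cb rose, with 32.4 and 29.4 FPKM at 12 months against 16.6 and 17.1 FPKM at 8 weeks (log2 fold change 0.82 ± 0.09, SE). Ppp1cc was called at 0.24, a call that held in 7 of 16 fits, and Ppp1ca was not called.

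The kinases that inhibit glycogen synthase, Gsk3a and Gsk3b, rose by log2 fold changes of 0.42 and 0.49. Their calls were lost without 8 weeks replicate 1 (Gsk3a, adjusted p of 0.0518) and without 8 weeks replicate 2 (Gsk3b, 0.0537). Stbd1, which tethers glycogen to membranes, had 8.67 and 8.69 FPKM at 12 months, against 4.93 and 3.87 FPKM at 8 weeks, and rose by 0.92 ± 0.15 (SE; edgeR adjusted p = 0.00623). Epm2a, the glycogen phosphatase laforin, rose by 0.59 ± 0.11 (SE). Its partner ligase Nhlrc1 (malin) had 2.35 and 1.99 FPKM at 12 months and 1.25 and 1.60 FPKM at 8 weeks and was not called (edgeR adjusted p = 0.106). Rbck1, a ubiquitin ligase whose loss in humans leads to abnormal glycogen deposits in muscle and heart, fell. It had 8.36 and 9.37 FPKM at 12 months, against 12.3 and 12.0 FPKM at 8 weeks, a log2 fold change of -0.51 ± 0.08 (SE; edgeR adjusted p = 0.00513), and with FPKM rescaled to 1 sum that call was lost (adjusted p of 0.0521).

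**Figure D4:**
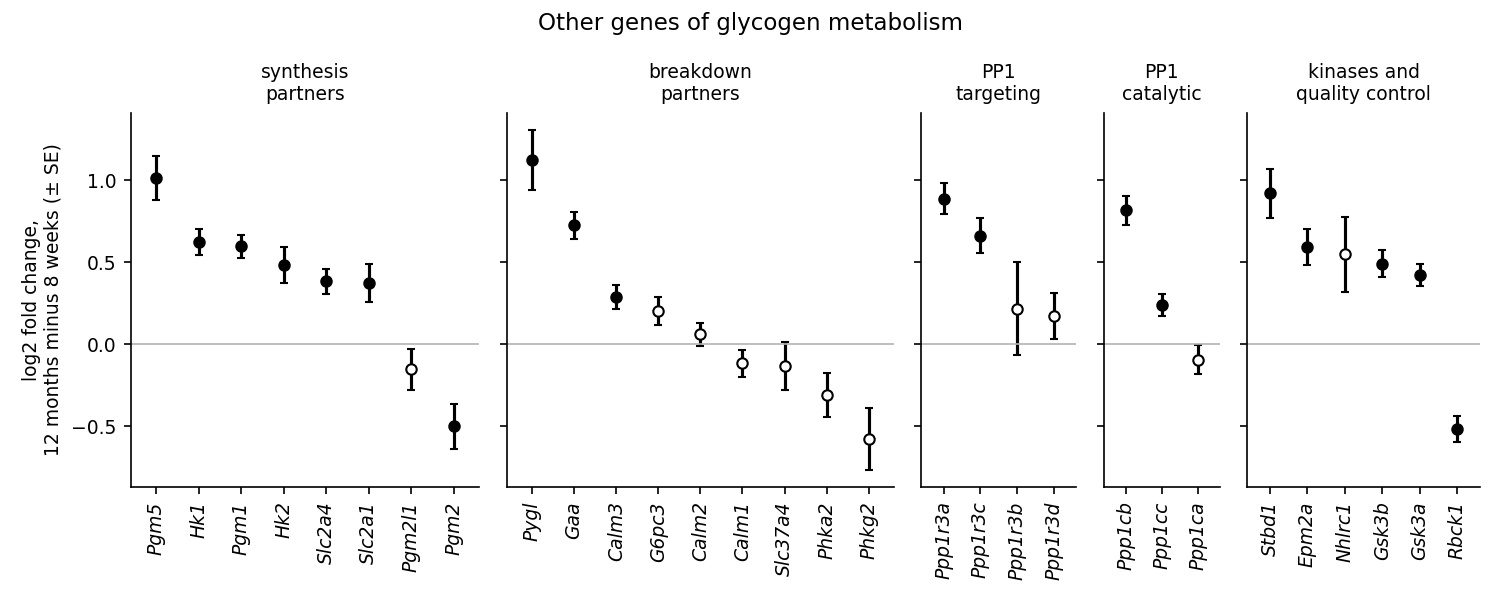
Log2 fold change, 12 months over 8 weeks, with SE bars (edgeR), for 30 of the 32 tested genes of the wider pathway list, in panels by role (PP1 is protein phosphatase 1); filled points were called at an adjusted p below 0.05 and open points were not. Of the filled points, 17 lie above 0 and 2, Pgm2 and Rbck1, lie below it.

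Genes with the levels most like those of Gys1 and of Pygm over the 4 libraries were found by Euclidean distance in log2(FPKM + 1), centred on each gene's mean. For Gys1 the nearest 5 were Otud6b, Synpo2, Pptc7, Mfn2 and Prkaa2, at distances of 0.04 to 0.05. For Pygm they were Wee1, Lrrc61, Stard7, Egln1 and Pygo1, at distances of 0.02 to 0.03. With 4 libraries many genes can lie this near.

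Sequence features that the choice of genes did not use were read as well. The longest transcript of the 9 enzymes had a median length of 3303 nt, beside 3096 nt over all tested genes, and a median GC content of 48.7%, beside 50.1%. The median log2 fold change was -0.22 in the 2405 shortest tested genes and 0.08 in the 2402 longest. By GC content, it was 0.09 in the 2404 tested genes with the least and -0.15 in the 2404 with the most. For 3 motifs, a search was made on both strands of the RefSeq promoters (build GRCm38.p6; 250 bases before to 50 after each start), of which 10 belong to the 9 genes. The core bound by MEF2 factors, CTA and TAG with any 4 bases between them, is present in 3.69% of all 32851 promoters, and 1 match lay in the Phka1 promoter. The E-box CACGTG is present in 7.15% of all promoters, and 1 match lay in the Gyg promoter. TNAAGGTCA, bound by oestrogen-related receptors, is present in 1.28% of all promoters and had 0 matches here.

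A common promoter element, CCAAT, was searched on both strands of the 250 bases before the start after these promoters had been read. It occurs in 33.8% of all such windows and in 3 of the 10 windows of the enzymes, a share near that background. Gys1 held 4 copies, Phkg1, the enzyme not called, held 2, and Ugp2 held 1 in 1 of its 2 windows, while the windows of the other enzymes held 0. Windows with 3 or more copies make up 2.79% of all. A second element, the GC box GGGCGG, was searched in the same way, also after the promoters had been read. It lay in 6 of the 10 windows of the enzymes, beside 32.7% of all windows. The windows printed below belong to the synthase, to the enzyme with the largest fold change and to the most abundant enzyme. Capitals mark CCAAT or its reverse complement, on the plus strand, 5′ to 3′, in build GRCm38.p6 from RefSeq.
Gys1, chr7:45434589-45434838: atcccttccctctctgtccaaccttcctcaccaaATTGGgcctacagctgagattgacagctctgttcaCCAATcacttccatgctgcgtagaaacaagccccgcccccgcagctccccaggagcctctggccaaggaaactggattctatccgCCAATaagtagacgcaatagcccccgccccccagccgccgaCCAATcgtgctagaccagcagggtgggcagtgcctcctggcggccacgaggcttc
Gbe1, chr16:70313699-70313948: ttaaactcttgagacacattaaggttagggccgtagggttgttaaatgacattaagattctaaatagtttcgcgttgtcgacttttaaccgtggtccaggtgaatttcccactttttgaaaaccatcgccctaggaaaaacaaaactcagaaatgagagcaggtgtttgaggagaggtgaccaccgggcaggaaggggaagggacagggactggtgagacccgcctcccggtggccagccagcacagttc
Pygm, chr19:6384158-6384407: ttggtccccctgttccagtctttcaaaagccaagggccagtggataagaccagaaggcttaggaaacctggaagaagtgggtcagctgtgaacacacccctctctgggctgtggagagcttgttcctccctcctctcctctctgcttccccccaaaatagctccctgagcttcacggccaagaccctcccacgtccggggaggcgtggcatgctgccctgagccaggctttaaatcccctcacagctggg
The GC content of these windows was 60.0% for Gys1, 48.8% for Gbe1 and 58.4% for Pygm, beside a median of 52.4% over all promoters. Gys1, with 4 copies of CCAAT, and Gbe1, with 0, both rose more than 2-fold at 12 months. Any part of either element in the fold changes was not tested. A match in letters is a description of the sequence and no evidence of binding.

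Each of the 9 enzymes was refitted in 15 other ways: with other scalings, tests, expression minimums and trends removed, and without each library in turn. The log2 fold changes of Gys1 ran from 1.02 to 1.22, those of Gbe1 from 1.09 to 1.43 and those of Pygb from 0.90 to 1.15. Ugp2 ran from 0.68 to 1.07, Phka1 from 0.66 to 1.10, Phkb from 0.49 to 0.71 and Pygm from 0.51 to 0.76. These 7 were called higher in all 16 fits. For Pygm the margin was narrowest without 8 weeks replicate 2, at an edgeR adjusted p of 0.0498. Gyg, at 0.37 to 0.70, was called in 15 fits, and Phkg1, at 0.16 to 0.38, in 2.

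**Figure D5:**
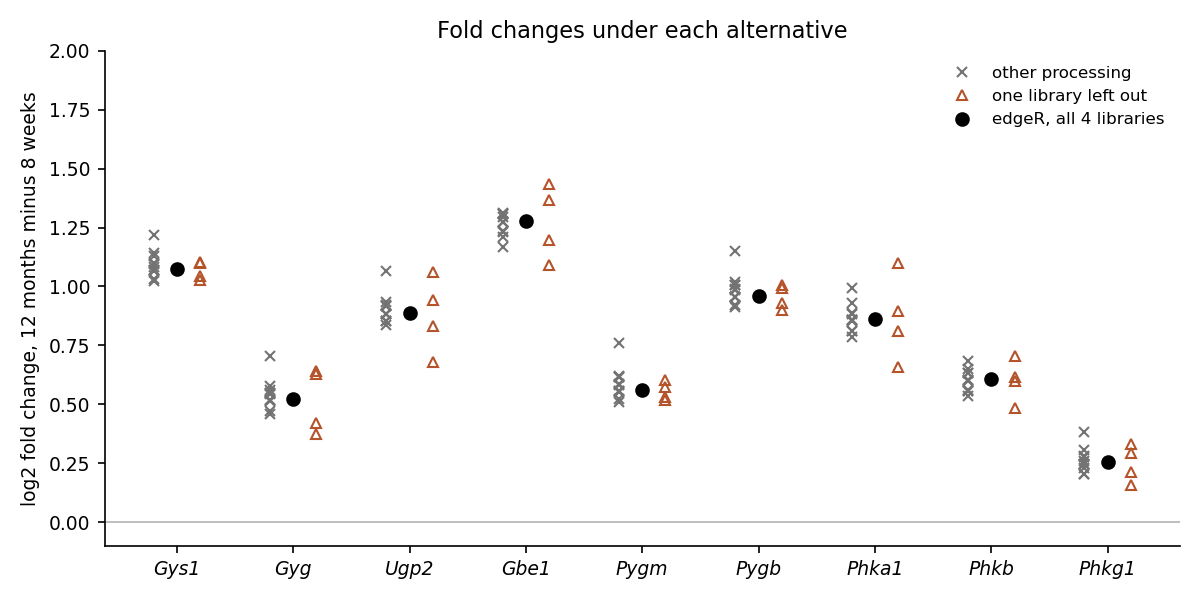
Log2 fold change, 12 months over 8 weeks (vertical axis), of each enzyme under the 16 fits: black points are edgeR with all 4 libraries, grey crosses other processing and orange triangles fits without 1 library. All points lie above 0, and those of Phkg1 lie lowest, between 0.16 and 0.38.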

How the data were processed

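Poly(A) RNA of 4 whole-heart libraries was sequenced in pairs after dUTP strand marking, from RNA with an integrity number above 7, per the labels' protocols. Build GRCm38 and the tools HISAT2 2.2.1, cutadapt 1.9, edgeR, DESeq2 and StringTie 2.1.6 are named, with no settings, per the submitters' processing notes. The deposited table gives an FPKM value and an estimated count per gene and library, per the file headers. The deposited expected counts were whole numbers already. 0 value columns lacked a sample.

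The counts were fitted with edgeR 4.0.16 (R 4.3.3): quasi-likelihood test, TMM scaling, intercept and age, 12 months minus 8 weeks (two-sided), genes with a mean FPKM of at least 1. A call means an adjusted p below 0.05 (Benjamini-Hochberg, 12027 genes). The common dispersion was 0.0243, with 2 residual degrees of freedom. The SE is |log2 fold change|/√F, and FPKM is given per library. Counts simulated with the same dispersion for every gene were also fitted. That setting is simpler than these data, and no result here rests on it.

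Alternatives used limma 3.58.1, DESeq2 1.42.0, RLE scaling, rescaled FPKM, other expression minimums (0.1, 5 or none), trends of length or GC removed (mgcv 1.9.3, for 99.9% of tested genes), mitochondrial genes left out and each library left out. The members and lists were chosen with earlier results of these data known. Named genes are the 9 members, called genes of the pathway list, partner isoforms and the 5 genes nearest to Gys1 and to Pygm; Pgm2l1, Ppp1ca, Nhlrc1 and single markers were named after their values were seen. Proteins were not compared here, and 2 tested genes of the pathway list stand in its counts but are not reported here.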

Additional observations from a re-analysis of the deposited data

How the results depend on the processing

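Over 144 values of the 9 enzymes under other settings, 140 kept the direction and the side of the threshold, 2 lost the call (Gyg without 8 weeks replicate 2 and at an adjusted p below 0.01), 2 gained it (Phkg1) and 0 changed sign. The number of enzymes called higher was 7 to 9. FPKM rescaled to 1 sum moved the median log2 fold change of all tested genes to 0.16 and called 3786 genes higher and 1079 lower. A minimum of 5 FPKM, which leaves fewer genes to test, called 1469 genes higher. At an adjusted p below 0.01, 1254 genes were higher and 1018 lower. Leaving out 1 library gave 1187 to 2514 genes higher and 890 to 2144 lower. Of the pathway list, 0 genes were lower with rescaled FPKM, 1 with a minimum of 0.1 or 5 FPKM, with no minimum or at an adjusted p below 0.01, and 1 to 3 without 1 library. The log2 ratio of Pygb to Pygl, -0.17 with all libraries, reversed to 0.42 with 1 FPKM added and ran from -0.35 to 0.0174 without 1 library (0.0156 without 12 months replicate 2 and 0.0174 without 8 weeks replicate 2); Pygl lies near 1 FPKM. The other causes were not tested. No paired analysis was possible because the numbers in the library titles share only 1 value between the ages, and replicates 1 and 2 are numbered here in order of deposit. With 2 libraries at each age, of which 1 remains when a library is left out, that lone library is assumed to vary like the others.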

Other observations

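The deposited table carries Gene Ontology terms, and the glycogen terms were read after the values of the enzymes had been seen. The term for glycogen metabolism has 28 genes, of which 25 were tested, 15 were called higher at 12 months and 1 lower (edgeR, adjusted p below 0.05), with a median log2 fold change of 0.61. It holds 7 of the 9 enzymes and 14 genes of the pathway list, so it is no independent support. The narrower term for glycogen synthesis had 7 of 11 tested genes called higher and a median of 0.62. That for glycogen breakdown had 6 of 7 called higher and a median of 0.81. Among all tested genes, 20.1% were called higher and 17.5% lower. The synthesis term holds 5 of the 9 enzymes and 4 genes of the pathway list. The breakdown term holds 2 and 4, so neither is independent support. The order of these medians is opposite to that of the enzymes, where synthesis had 0.98 and breakdown 0.61, but the sets are not alike. Only 4 of the 9 enzymes are synthesis genes, so the synthesis term must include a breakdown enzyme. The breakdown term leaves out most of the 5 breakdown enzymes. The gene that fell was Pcdh12, an endothelial protocadherin, with 1.58 and 1.86 FPKM at 12 months against 6.09 and 4.79 FPKM at 8 weeks (log2 fold change -1.72 ± 0.15, SE; edgeR adjusted p = 0.00128). The 6 endothelial markers fell as well, and their part in this value was not tested. Of the genes on neither list, 2 rose: Stk40 by a log2 fold change of 0.64 ± 0.11 (SE) and Acadm, a fatty acid oxidation enzyme, by 0.62 ± 0.07 (SE). Pfkm, the muscle phosphofructokinase of glycolysis, had 197 and 211 FPKM at 12 months and 192 and 179.9 FPKM at 8 weeks and was not called (edgeR adjusted p = 0.474).

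Ppp1r3f, a phosphatase 1 subunit below the expression minimum, had 235 and 210 counts at 12 months, against 42 and 81 counts at 8 weeks, and was called higher with no minimum (edgeR adjusted p = 0.016). It overlaps Gm36995 on the same strand, so reads may be shared. Gm36995 moved the other way, with 0.345 and 0.752 FPKM at 12 months against 1.44 and 1.28 FPKM at 8 weeks. Ppp1r3f had 0.759 and 0.729 FPKM at 12 months against 0.136 and 0.223 FPKM at 8 weeks. Whether reads shifted between the genes was not tested. Ppp1r3g had 4 and 6 counts at 12 months and 13 and 28 counts at 8 weeks.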
